A study of Xenopus laevis with 12 samples.

Results

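Animal caps that had received an antisense oligonucleotide against lhx1 and were then induced with activin and retinoic acid were compared with induced caps that had not been injected. The comparison rests on 6 of the 12 arrays of the study. They are the 3 arrays labelled for injection, activin and retinoic acid, here lhx1-AS/AcRA, and the 3 labelled for activin and retinoic acid alone, here AcRA, and each of experiments I, II and III gave 1 array to either group. An animal cap is the ectoderm cut from the animal pole of a Xenopus laevis blastula, which can still form many tissues. Both groups were cut at stage 9, treated with 10 ng/ml activin and 0.0001 M retinoic acid, cultured for 24 hours at 14 °C and pooled at 12 caps per RNA. The lhx1-AS/AcRA embryos had in addition been injected with 800 pg of the oligonucleotide lhx1-AS. The other 6 arrays were caps cultured without activin and retinoic acid, from injected embryos (lhx1-AS) and from uninjected ones (C). As there was no control oligonucleotide, what acted through lhx1 and what came from injecting an oligonucleotide cannot be told apart. The caps were harvested at stage 12.5 by the labels. The paper gives a later stage.

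Lhx1 is a LIM homeodomain transcription factor. In the frog gastrula it is made in the dorsal organizer, the signalling centre that patterns the head and axis, and later in the intermediate mesoderm that forms the pronephric kidney. Activin acts through the nodal pathway and can turn cap cells into mesoderm, organizer or endoderm, while retinoic acid favours posterior and intermediate mesoderm fates. Uninduced caps form epidermis under BMP signalling.

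The array gave 1 signal for each of 15503 probe sets, on a linear scale that had been set to a trimmed mean of 500.1 on each array. Medians were 107 to 121 on the lhx1-AS/AcRA arrays and 129 to 138 on the AcRA arrays, and 34.5 to 40.3% and 33.9 to 36.9% of the signals lay under 64. The ratio of 3′ to 5′ probe sets, a sign of RNA quality, was 0.661 to 0.876 on the lhx1-AS/AcRA arrays and 0.563 to 0.705 on the AcRA arrays for actin, and 2.88 to 3.84 against 3.36 to 3.99 for Gapd. These ratios stood apart on 1 array outside the comparison, that of lhx1-AS in experiment I, at 5.40 and 13.4. This array entered the estimate of the spread, and without it 1338 probe sets were higher and 2076 lower. Differences are log2 values of lhx1-AS/AcRA minus AcRA with limma's standard error (SE), from signals set to at least 1, and a probe set counts as called at an adjusted p under 0.05. Each n is 3 arrays per group. The same fit was repeated with 64 added to every signal, which shrinks differences between dim signals.

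In this comparison 1082 probe sets were higher and 1851 lower, that is 6.98% and 11.9% of those tested. Of these, 1036 and 1780 were called the same way with 64 added and 0 the opposite way. With 64 added, 8.34% of all probe sets were higher and 13.1% lower. All 3 experiments moved the same way for 1081 of the higher and 1848 of the lower probe sets, and for 53.9% of all probe sets. A call in a paired fit favours probe sets that moved 1 way, so these counts are no separate check. The signals of the groups did not overlap for 881 of the higher and 1607 of the lower probe sets. For comparison, 12.8% of all probe sets had every lhx1-AS/AcRA array above the AcRA arrays and 16.4% had every one below. Among called probe sets the median difference was -1.67 for the lower and 1.1 for the higher ones. The lower ones were dimmer, with a median signal in the brighter group of 483 against 910. At least a 4-fold difference in mean signal was seen for 643 lower and 222 higher ones. Of the called probe sets 63.1% were lower, a share that was 40.4% with the arrays scaled to 1 median, a scaling that put the median difference of all probe sets at 0.26 in place of 0.02. The differences of the experiments correlated at 0.387 to 0.479 over all probe sets and at 0.801 to 0.839 over the 6196 probe sets with a mean signal of at least 200. Probe sets are not independent and share the array they were read on, so these values carry no test.

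**Figure D1:**
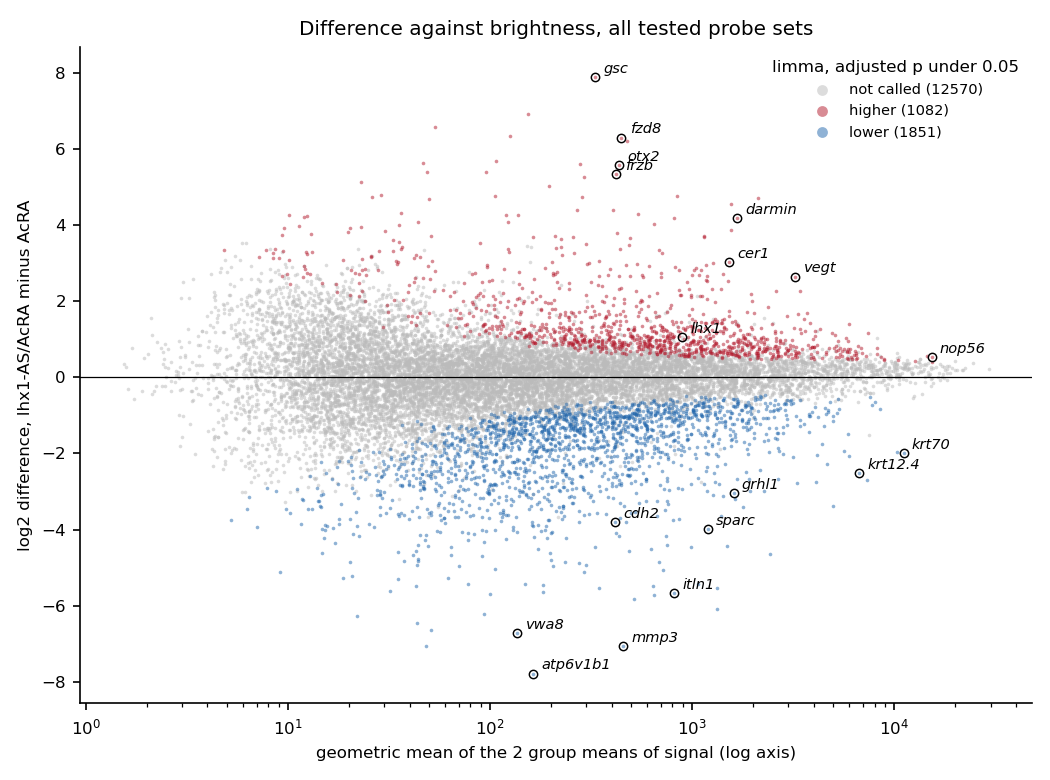
Log2 difference of lhx1-AS/AcRA minus AcRA for each of 15503 probe sets (vertical axis) against its mean signal (horizontal axis, log scale), with called probe sets in colour. Differences spread widely among dim probe sets, most of which were not called. Gsc is the highest and atp6v1b1 the lowest of the labelled genes, and lhx1 lies above 0 without a call at 1.06.

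With the probe sets split by brightness into 4 equal groups, the dimmest had most of the spread. There the median SE was 1.03 and 74 were higher and 71 lower. In the brightest group the median SE was 0.207 and 539 were higher and 638 lower. A dim gene that was not called therefore had a wide interval, while most of the genes named below were bright in at least 1 group. With the dimmest 40% of probe sets left out, 2 of 4 organizer transcription factors, 4 of 10 nodal pathway and 5 of 11 endoderm genes were higher and 1 of 7 posterior genes was lower among the lists described below.

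The targeted gene came first among the checks. Lhx1 had signals of 1144, 991 and 1614 in the caps labelled lhx1-AS/AcRA, against 316, 823 and 779 on the AcRA arrays. The labelled lhx1-AS/AcRA array had more signal in each experiment and the groups did not overlap. The difference was 1.06 ± 1.06 (SE, limma adjusted p = 0.55), so it did not pass the test, and it was called higher with 64 added (0.97, limma adjusted p = 0.029). Arrays labelled for the oligonucleotide thus showed no loss of lhx1 RNA, and the direction of each difference below rests on the labels. Where on the transcript the probes and the oligonucleotide bind was not analysed here, and lhx1 protein was not measured on the arrays.

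Several regulators and secreted proteins of the organizer were higher in the caps labelled lhx1-AS/AcRA. The homeobox gene gsc, an activin target that marks the organizer, had 1823, 4824 and 7276 on those arrays, against 27.8, 38.6 and 4.49 on the AcRA arrays. All 3 labelled lhx1-AS/AcRA arrays lay far above the AcRA arrays, with a difference of 7.89 ± 1.09 (SE, limma adjusted p = 0.00032) and of 5.56 with 64 added. Otx2, a homeobox gene of the organizer and later of the forebrain, had 2386, 1861 and 3788 in lhx1-AS/AcRA caps and 46.0, 141 and 24.0 in AcRA caps, a difference of 5.57 ± 0.54 (SE, limma adjusted p = 2.7e-05). Foxa4, a forkhead gene of the organizer and notochord, had 1189, 995 and 1358 against 30.2, 77.8 and 75.2 in AcRA caps and differed by 4.38 ± 0.76 (SE, limma adjusted p = 0.0014). Of 17 measured organizer transcription factors, 6 were higher and 0 lower, where 7.80% of the 5885 genes in no list were higher and 12.2% lower. Their median difference was 1.57, against 0.03 over all genes, and 10 were higher with 64 added. When 1 of the 6 arrays was left out, 3 to 5 of the 17 were higher.

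Some genes of a list of secreted antagonists of the organizer, which block Wnt, BMP and nodal ligands, ran the same way. The list also holds admp, which codes for a ligand and not an antagonist. Frzb, a secreted Wnt-binding protein, had 2077, 1787 and 3940.0 in lhx1-AS/AcRA caps and 31.3, 114 and 61.4 in AcRA caps (5.34 ± 0.65, SE, limma adjusted p = 0.00013). Admp, a BMP-type ligand made in the organizer, had 1324, 1347 and 2357 against 47.3, 88.6 and 17.9 in AcRA caps (5.26 ± 0.73, SE, limma adjusted p = 0.00033). The groups were far apart for both. Lefty, a feedback inhibitor of nodal, had 512, 1157 and 1396 in lhx1-AS/AcRA caps and 14.3, 74.9 and 22.4 in AcRA caps (5.02 ± 0.80, SE, limma adjusted p = 0.00084), and its other probe set was higher as well. Of 17 genes in this list 5 were higher and 1 lower, with a median of 1.52, and 10 were higher and 2 lower with 64 added. When 1 of the 6 arrays was left out, 3 to 5 were higher. The lower gene was sfrp2, a secreted Frizzled-related protein with -1.05 (limma adjusted p = 0.017), a call lost without lhx1-AS/AcRA array II or III or AcRA array I or III, with an adjusted p of up to 0.11. Cer1, an inhibitor of nodal, BMP and Wnt, was at 3.02 (limma adjusted p = 0.012) and the BMP antagonist chrd.1 at 2.52 (limma adjusted p = 0.017). The call of cer1 was lost without lhx1-AS/AcRA array II, AcRA array I or AcRA array III, with an adjusted p of up to 0.070. That of chrd.1 was lost without lhx1-AS/AcRA array I or II or AcRA array III, with one of up to 0.10. The activin antagonist fst went the other way, with 32.6, 65.3 and 129.7 in lhx1-AS/AcRA caps and 253, 333 and 389 in AcRA caps. Its difference of -2.30 ± 0.90 did not pass (SE, limma adjusted p = 0.095), and it was called lower with 64 added (-1.52, limma adjusted p = 0.00016).

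**Figure D2:**
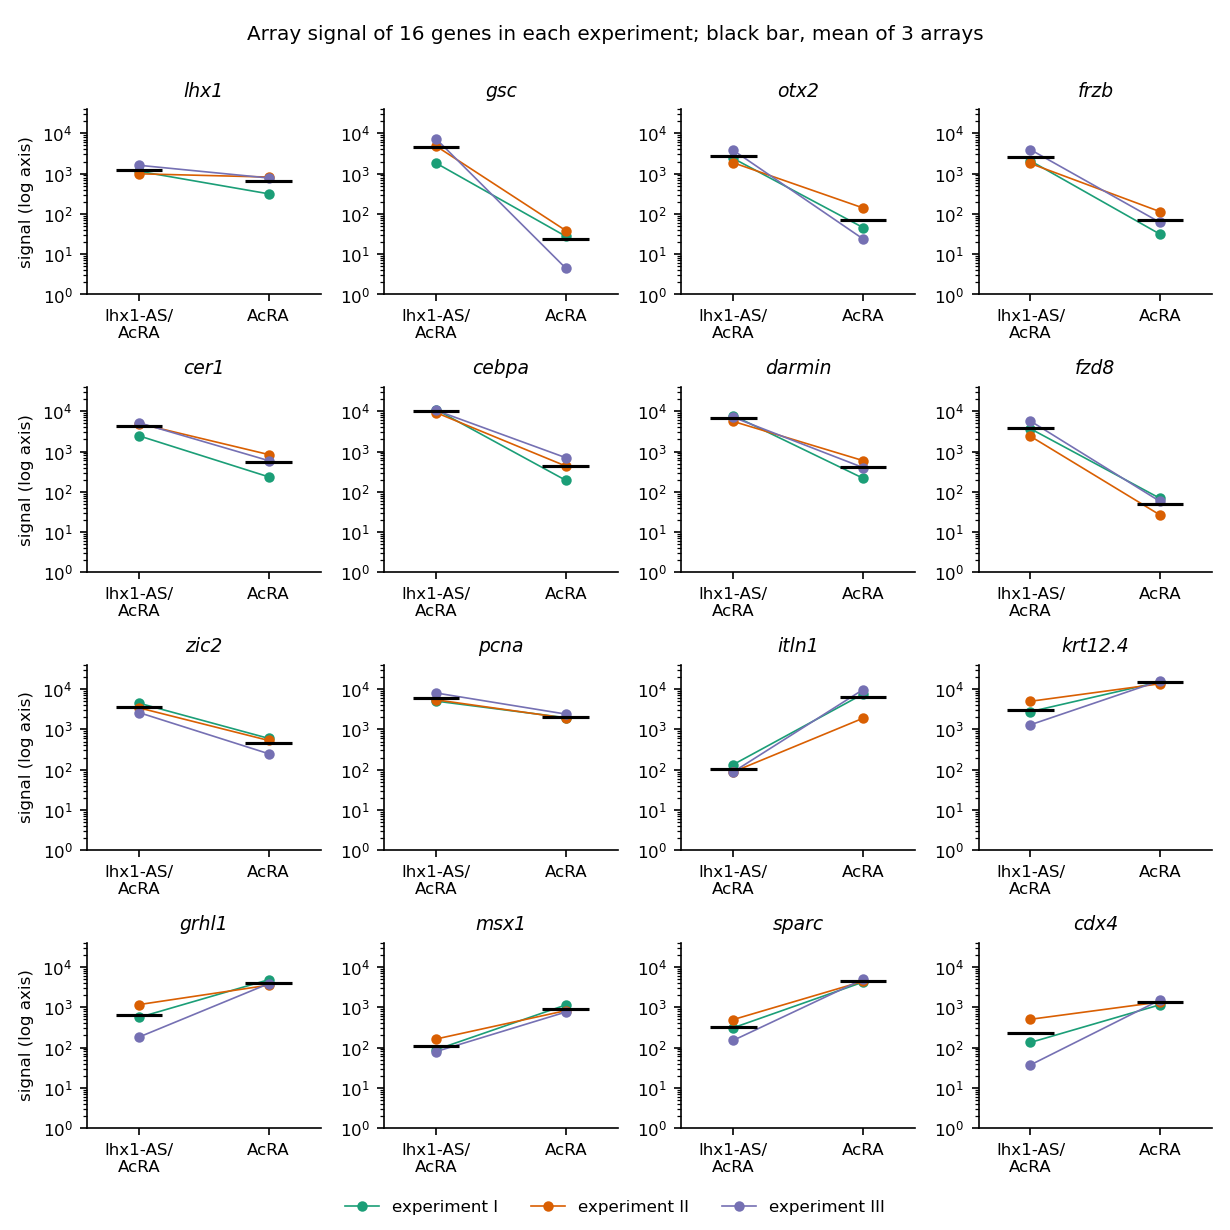
Signal of selected genes on each array (vertical axis, log scale), with the 3 lhx1-AS/AcRA arrays left of the 3 AcRA arrays of each gene and marks for experiments I, II and III. Organizer and endoderm genes such as gsc are higher, and epidermis genes such as itln1 lower, on every lhx1-AS/AcRA array.

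Of 25 genes of the nodal and activin pathway, 7 were higher and 2 lower, with a median of 0.88, and without the replicate block 4 and 1. Besides gsc and lefty the higher genes included tdgf1.3, a coreceptor of nodal of the Cripto family, with 1551, 2778 and 1426 in lhx1-AS/AcRA caps and 159, 787 and 118 in AcRA caps (2.90 ± 0.39, SE, limma adjusted p = 0.00026). The T-box gene eomes, an early target of the pathway, was at 3.85 (limma adjusted p = 0.013), a call lost without lhx1-AS/AcRA array I or AcRA array III, with an adjusted p of up to 0.068. The lower genes were the receptor gene acvr2b, which binds activin, with 778, 662 and 647 against 2163, 1799 and 2029 in AcRA caps (-1.52 ± 0.20, SE, limma adjusted p = 0.00025), and ski, a corepressor of Smad proteins, at -0.95 (limma adjusted p = 0.014). The call of ski was lost without lhx1-AS/AcRA array III, AcRA array II or AcRA array III, with an adjusted p of up to 0.091. The inhibitory Smad gene smad7 had a difference of -0.07 ± 0.24 (SE, limma adjusted p = 0.88).

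Some endoderm genes were higher as well. Darmin, a peptidase gene of the endoderm, had 7816, 5580.1 and 7073 in lhx1-AS/AcRA caps and 217, 596 and 400.3 in AcRA caps. Gata4, a zinc finger factor of endoderm and heart, had 1322, 883 and 2272 in lhx1-AS/AcRA caps and 33.1, 70.3 and 60.3 in AcRA caps, and its relative gata5 had 538, 218 and 865 against 123, 53.9 and 56.0 in AcRA caps. For each of these genes the lowest lhx1-AS/AcRA array was above the highest AcRA array. The differences were 4.18 ± 0.67, 4.74 ± 0.82 and 2.70 ± 0.45 (SE, limma adjusted p = 0.00091, 0.0015 and 0.0011). Of 25 endoderm genes, 8 were higher and 1 was lower, with a median of 1.34 and 13 higher with 64 added, against 5 without the replicate block. The count ran from 3 to 7 when 1 of the 6 arrays was left out. Among the higher ones, sox17b.1, an endoderm-determining HMG box gene, had 3.21 ± 0.98 (SE, limma adjusted p = 0.036) and lost its call in each of the 6 omissions, with an adjusted p of up to 0.14. The lower one was its relative sox7 at -2.65 (limma adjusted p = 0.026), which was not called without lhx1-AS/AcRA array I or III or AcRA array I or III, with an adjusted p of up to 0.13. Gata4 was called on 1 of its 2 probe sets. The third GATA factor of the group, gata6, had 0.61 ± 0.25 (SE, limma adjusted p = 0.12).

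Of 27 anterior and head genes 9 were higher and 1 was lower, with a median of 1.45, and 7 to 10 were higher when 1 of the 6 arrays was left out. Crx, an otx-type homeobox gene of the anterior region and eye, had 1086, 1358 and 3819 in lhx1-AS/AcRA caps and 33.4, 45.6 and 33.2 in AcRA caps (5.59 ± 0.37, SE, limma adjusted p = 2.9e-06). Fzd8, a Wnt receptor of the anterior neurectoderm and organizer, had 3682, 2389 and 5707 against 68.4, 26.4 and 57.5 in AcRA caps (6.29 ± 0.33, SE, limma adjusted p = 5e-07). Only that probe set of its 3 was called. Otx1 rose by 2.72 (limma adjusted p = 0.0028) and tcf7l1, a repressor of Wnt targets needed for the head, by 2.15 (limma adjusted p = 9.9e-05). The lower gene was the eye and brain regulator pax6, at -2.22 (limma adjusted p = 0.025), a call lost without lhx1-AS/AcRA array I or III or AcRA array I or II, with an adjusted p of up to 0.17. The 9 higher genes include organizer genes of the lists above. All 9 were highest in lhx1-AS/AcRA array III among the 3 injected arrays. All 9 had groups that did not overlap, as did 881 of all 1082 higher probe sets.

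The number of posterior genes called lower depended on the fit. Of 29 posterior and Hox genes, 5 were lower and 1 was higher, with a median of -0.89, and 14 were lower with 64 added. Without the replicate block 3 were lower, and with only the 6 arrays and the block 12. The lower count was 0 to 6 when 1 of the 6 arrays was left out. The caudal-type gene cdx4, a regulator of Hox genes, had 134, 503 and 37.1 in lhx1-AS/AcRA caps and 1156, 1353 and 1519.7 in AcRA caps (-3.30 ± 0.84, SE, limma adjusted p = 0.015), and the Hox cofactor gene meis2 was at -2.64 (limma adjusted p = 0.022). The posteriorizing ligand gene wnt8a was at -2.29 (limma adjusted p = 0.015), and the trunk gene hoxc6 at -1.78 (limma adjusted p = 0.04). Each of these 4 calls was lost in 3 to 5 of the 6 omissions. Those omissions were lhx1-AS/AcRA array III, AcRA array I and AcRA array III for cdx4, lhx1-AS/AcRA array III, AcRA array I and AcRA array II for meis2, lhx1-AS/AcRA arrays I and III and AcRA arrays I and II for wnt8a, and all but AcRA array II for hoxc6. Their adjusted p reached 0.11, 0.13, 0.099 and 0.19. The trunk genes hoxb4 and hoxb7 had -2.01 and -1.26 (limma adjusted p = 0.12 and 0.13). The higher gene was hoxc10, a Hox gene of the most posterior trunk, with 85.3, 119 and 144 in lhx1-AS/AcRA caps and 3.84, 53.4 and 12.5 in AcRA caps (3.05 ± 0.64, SE, limma adjusted p = 0.0049).

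The retinoic acid responsive genes cyp26a1 and dhrs3 were not called. Cyp26a1, whose product degrades retinoic acid, had 7444, 4832 and 5139 in lhx1-AS/AcRA caps and 6173, 4762 and 6144 in AcRA caps. Its groups overlapped, with a difference of 0.01 ± 0.42 (SE, limma adjusted p = 0.99). Dhrs3, a retinaldehyde reductase gene, had 6433, 5229 and 5913 in lhx1-AS/AcRA caps and 6538, 6427 and 6450.2 in AcRA caps (-0.15 ± 0.20, SE, limma adjusted p = 0.67). Among 18 genes of the pathway 2 were higher and 1 was lower, with a median of -0.05 that turned to 0.19 with the arrays scaled to 1 median, and 3 were lower with 64 added. One of these was cyp26c1, another enzyme that degrades retinoic acid, which was chosen after its values were seen. It had 81.5, 86.2 and 215 in lhx1-AS/AcRA caps and 255, 203 and 278 in AcRA caps, lower in each experiment, with a difference of -1.08 ± 0.71 (SE, limma adjusted p = 0.34) and of -0.75 with 64 added (limma adjusted p = 0.02). The calls were the retinol dehydrogenase gene rdh10 and the receptor gene rarg, higher, and the receptor gene rara, lower. They had an adjusted p of 0.035, 0.037 and 0.044 in limma and were kept in 1, 1 and 0 of the 6 omissions.

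Genes of the epidermis were lower. Krt12.4, a keratin of the larval epidermis, had 2759.9, 4985 and 1302 in lhx1-AS/AcRA caps and 15142, 13587 and 16115 in AcRA caps (-2.51 ± 0.31, SE, limma adjusted p = 0.00015). The transcription factor gene grhl1, which activates keratin genes, had 559.6, 1164 and 182 against 4824, 3531 and 3844 in AcRA caps (-3.04 ± 0.40, SE, limma adjusted p = 0.00021), and its relative grhl3 had -2.56 ± 0.39 (SE, limma adjusted p = 0.00068). No signal of either group overlapped the other for krt12.4, grhl1 or grhl3. The ectodermal homeobox gene dlx3 had 131, 370.2 and 42.7 in lhx1-AS/AcRA caps and 1596, 1875 and 1089 in AcRA caps, and msx1, a BMP target, had 88.5, 163 and 79.5 against 1142, 825 and 761 in AcRA caps. Both were lower in each experiment, with log2 differences of -3.54 and -3.1 (limma adjusted p = 8.5e-05 and 1.9e-05).

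Of 42 measured epidermis genes 20 were lower and 1 was higher, with a median of -1.0, and 17 to 21 were lower when 1 of the 6 arrays was left out. The plakin genes ppl, evpl and dsp, which tie keratin filaments to desmosomes, fell, with log2 differences of -3.58, -3.46 and -2.75 (limma adjusted p = 9.9e-05, 6.8e-05 and 2e-05). The desmosome genes pkp3 and jup had -1.94 and -1.59, and the tight junction genes cldn1 and cldn4 had -3.84 and -1.93 (limma adjusted p = 0.0012, 0.0017, 0.0025 and 0.0039). Dsp, the desmoplakin gene, had 382, 600.2 and 492 in lhx1-AS/AcRA caps and 2005, 4638 and 3678 in AcRA caps. The adherens junction gene cdh1 fell by 1.21 (limma adjusted p = 0.0035), a call lost without the replicate block (limma adjusted p = 0.17). The epidermal regulator tp63 was at -2.20 (limma adjusted p = 0.034) and the bright keratin krt70 at -1.98 (limma adjusted p = 0.029). Tp63 was not called without lhx1-AS/AcRA array I or III or AcRA array I or III, with an adjusted p of up to 0.16, nor with 64 added, and krt70 was not called without AcRA array I or III, with one of up to 0.15. The higher gene was the keratin krt19, with 3774, 766 and 1189.6 in lhx1-AS/AcRA caps and 165, 152 and 464 in AcRA caps on 1 of its 2 probe sets (2.73 ± 0.44, SE, limma adjusted p = 0.00086). Of the 20 lower genes 18 had groups that did not overlap, as did 1607 of all 1851 lower probe sets. Among the injected arrays, 15 of the 20 genes were lowest on lhx1-AS/AcRA array III and 16 highest on lhx1-AS/AcRA array II.

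Secretory and ionocyte cells sit among the epidermal cells of the tadpole skin, and some of their genes were lower. Itln1, a lectin secreted by the skin, had 134, 88.5 and 88.3 in lhx1-AS/AcRA caps and 7519, 1889 and 9681 in AcRA caps (-5.67 ± 0.39, SE, limma adjusted p = 3.3e-06). Atp6v1b1, a proton pump subunit of ionocytes and kidney tubules, had 7.08, 37.2 and 1.74 against 1224, 1670.3 and 2372 in AcRA caps. It differed by -7.78 ± 0.86 (SE, limma adjusted p = 6.4e-05), a size that rests on signals near the floor of 1, and by -4.50 with 64 added. The pump subunits atp6v0d2 and atp6v1a had -2.95 and -1.4, and the carbonic anhydrase gene ca12 had -2.5 (limma adjusted p = 0.00081, 0.0076 and 0.0027). Foxi1, the forkhead gene that specifies ionocytes, was at -2.19 (limma adjusted p = 0.028), a call kept only without lhx1-AS/AcRA array I, with an adjusted p of up to 0.11. Of 27 genes of these cells 11 were lower and 0 higher, with a median of -0.52, while 7 were lower with 64 added (median -0.20) and 7 with only the 6 arrays fitted. The mucin-like gene otogl2 was lower on 3 of 4 probe sets, but its brightest probe set had 5896, 5837 and 8925 in lhx1-AS/AcRA caps and 7363, 7398 and 6836 in AcRA caps, with groups that overlapped and a difference of -0.09 ± 0.18 (SE, limma adjusted p = 0.78).

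**Figure D3:**
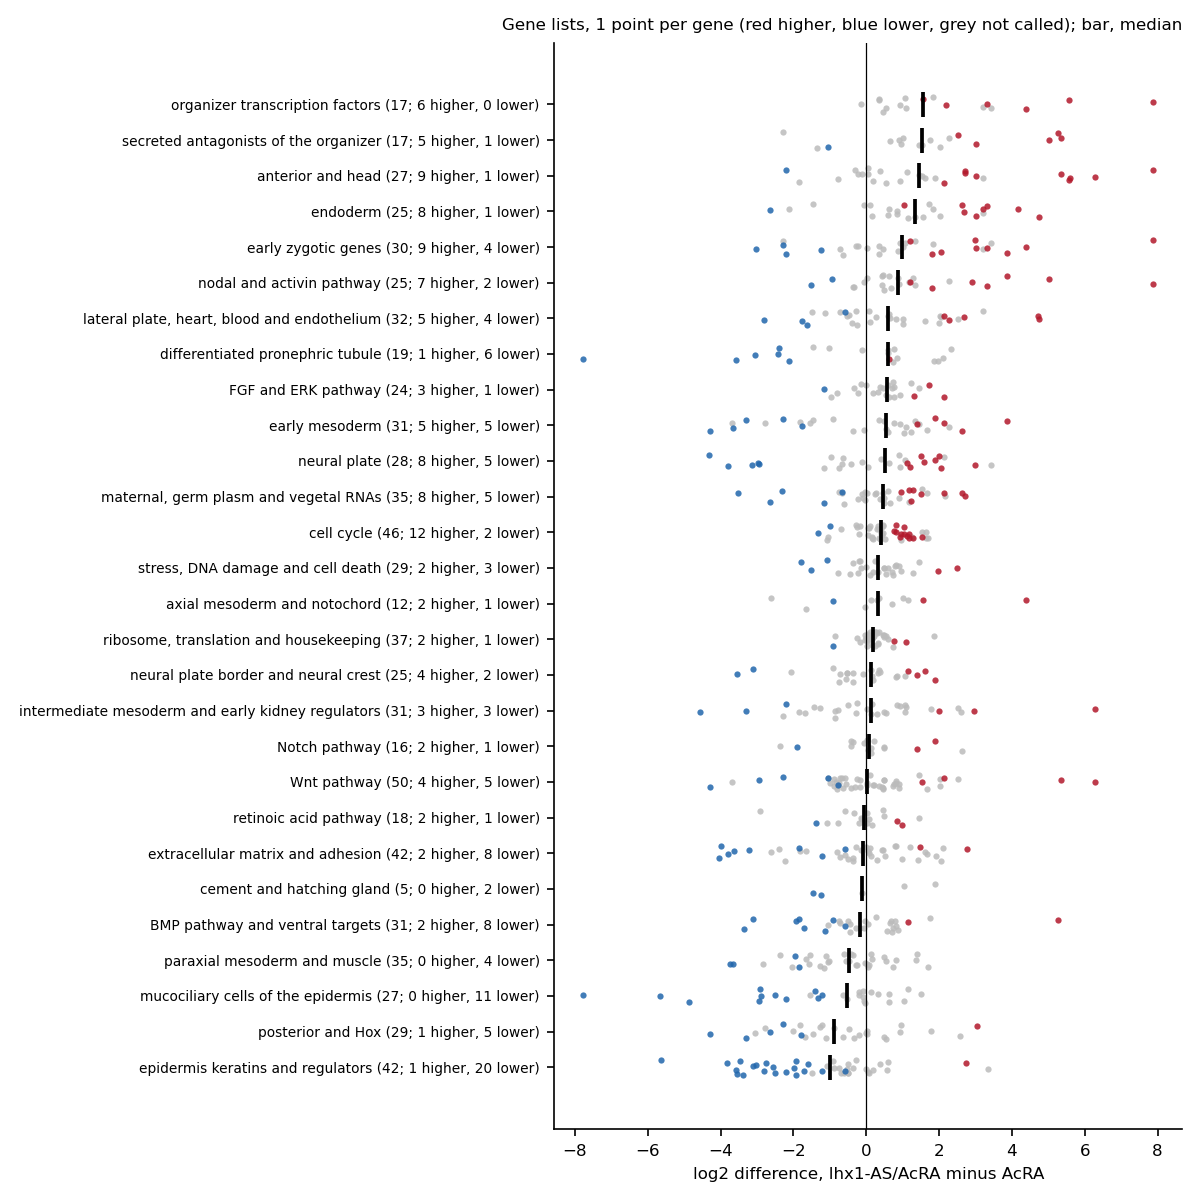
For each gene list, the log2 difference of lhx1-AS/AcRA minus AcRA of its members (points, called ones in colour) and their median (bar). Organizer, endoderm and anterior lists lie right of 0 and epidermis, mucociliary and posterior lists left of it.

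Summed over marker genes, the 5 epidermis markers gave 1506 to 5843 on the lhx1-AS/AcRA arrays and 18415 to 27749 on the AcRA arrays, with 5 of 5 lower. The 4 organizer markers gave 10551 to 19376 against 876 to 1837 on the AcRA arrays, with 4 of 4 higher. The 4 endoderm markers gave 7089 to 10376 against 336 to 759 on the AcRA arrays, with 3 of 4 higher. Most of this sum on the lhx1-AS/AcRA arrays came from darmin, whose signals are given above. Sox17a was not called, and sox17b.1 lost its call in each of the 6 omissions. Neural plate markers gave 1454 to 2371 on the lhx1-AS/AcRA arrays and 743 to 1563 on the AcRA arrays, with 2 of 4 higher and 1 lower. The higher ones, sox3 and zic1, kept their calls in 2 and 3 of the 6 omissions. Sox3 was also not called without the replicate block (limma adjusted p = 0.19). The lower one, ncam1, kept its call in all 6. Cement gland markers were low in both groups, at 234 to 333 and 390.4 to 617, with 1 of 3 lower. Muscle markers gave 62.4 to 179 and 103 to 452, with 1 of the 2 measured lower. The blood markers hba1, gata1 and tal1 summed to 44.3 to 170.4 on the lhx1-AS/AcRA arrays and 8.67 to 93.5 on the AcRA arrays, and the germ plasm markers dazl and ddx25 to 38.3 to 107 and 58.5 to 85.5, with 0 called in either set. The RNA came from whole caps, so fewer cells of a type and less RNA per cell cannot be told apart.

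Of 31 genes of BMP signalling and ventral fate, 2 were higher and 8 lower. The median was -0.16, which turned to 0.08 with the arrays scaled to 1 median, where 8 were higher and 6 lower, and without the replicate block 4 were lower. The receptor gene bmpr1a had 228, 175 and 184 in lhx1-AS/AcRA caps and 655, 362 and 332 in AcRA caps (-1.14 ± 0.23, SE, limma adjusted p = 0.0036), a call lost without the replicate block (limma adjusted p = 0.054). The signal transducer gene smad9 fell by 1.83 (limma adjusted p = 0.0059). The inhibitors of bHLH factors id2 and id3, both BMP targets, moved in opposite directions. Id2 had 219.9, 1024 and 315 in lhx1-AS/AcRA caps and 1515, 1868 and 1392 in AcRA caps (-1.93 ± 0.32, SE, limma adjusted p = 0.0011), and id3 had 1780.0, 2011 and 1645 against 846, 765 and 840.4 in AcRA caps (1.15 ± 0.19, SE, limma adjusted p = 0.001). The ventral homeobox gene ventx2.1 had -0.73 ± 0.26 (SE, limma adjusted p = 0.073).

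Mesoderm genes moved both ways. Of 31 early mesoderm genes 5 were higher and 5 lower, with a median of 0.53, and 8 and 8 with 64 added. Aplnr, a receptor of early mesoderm and endothelium, had 1401, 2621 and 2945 in lhx1-AS/AcRA caps and 308, 703 and 597 in AcRA caps (2.13 ± 0.47, SE, limma adjusted p = 0.0067). The T-box gene vegt was at 2.64 (limma adjusted p = 0.018), a call lost without lhx1-AS/AcRA array I, AcRA array I or AcRA array III, with an adjusted p of up to 0.11. Of 35 muscle and somite genes 4 were lower and 0 higher, with a median of -0.47, and 8 were lower and 1 was higher with 64 added, with a median of -0.08. The 4 lower genes are 11.4% of the list, where 12.2% of the genes in no list were lower. The muscle creatine kinase gene ckm had -1.86 and the calcium pump gene atp2a1 -1.96 (limma adjusted p = 0.00016 and 0.00026). Myod1, the myogenic bHLH gene, had 1.65, 134 and 5.17 in lhx1-AS/AcRA caps and 117, 362 and 54.3 in AcRA caps (-3.66 ± 0.99, SE, limma adjusted p = 0.02), and its call was kept only without lhx1-AS/AcRA array II or AcRA array III, with an adjusted p of up to 0.14. Its relative myf5 had 0.50 ± 0.77 (SE, limma adjusted p = 0.72).

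Among lateral plate, heart, blood and endothelium genes 5 of 32 were higher and 4 lower, and 8 and 4 with 64 added. Cebpa, a leucine zipper factor of myeloid, liver and fat cells, had 10947, 9214 and 10492 in lhx1-AS/AcRA caps and 193, 436 and 702 in AcRA caps, with groups far apart on both of its probe sets (4.71 ± 0.49, SE, limma adjusted p = 3.9e-05). The myeloid factor gene spib fell by 1.64 on the log2 scale (limma adjusted p = 0.00069), and foxf1, a forkhead gene of the lateral plate, was at -1.77 (limma adjusted p = 0.014). The call of foxf1 was lost without lhx1-AS/AcRA array I or II or AcRA array III, with an adjusted p of up to 0.075. Tal1, a bHLH factor of blood and endothelium, had 2.04 ± 0.89 (SE, limma adjusted p = 0.13).

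Activin and retinoic acid are used to induce kidney in caps. Of 31 intermediate mesoderm and early kidney genes 3 were higher and 3 lower, with a median of 0.14, and 6 were higher and 8 lower with 64 added. Pax8, a paired box gene needed for the pronephros, had 8.89, 43.9 and 22.7 in lhx1-AS/AcRA caps and 42.6, 26.3 and 48.1 in AcRA caps (-0.87 ± 0.88, SE, limma adjusted p = 0.56). The groups overlapped. Its relative pax2 had 50.0, 64.6 and 26.7 in lhx1-AS/AcRA caps and 92.3, 110.5 and 172 in AcRA caps (-1.45 ± 0.59, SE, limma adjusted p = 0.11). The groups did not overlap for pax2, and 0 of its 8 probe sets were called. By its own cutoffs the paper lists pax2 and fst as lower in injected induced caps. Hoxb7 is also in that list, although the paper's text says that it narrowly missed the criteria. Wt1, a factor of the glomus, had -0.27 ± 0.73 and the receptor gene nrp1 had 0.31 ± 0.58 (SE, limma adjusted p = 0.85 and 0.78). The value of nrp1 is that of its brightest probe set with this symbol. The paper lists another entry of the array, named as like neuropilin 1, as lower in injected induced caps. The value of that entry is not given here. Osr1, a zinc finger factor of the intermediate mesoderm, rose, with 1166, 590.2 and 740.2 in lhx1-AS/AcRA caps and 99.6, 163 and 65.6 in AcRA caps (2.97 ± 0.59, SE, limma adjusted p = 0.0037), and so did irx2, an Iroquois homeobox gene (1.99 ± 0.39, SE, limma adjusted p = 0.0031). The phosphatase gene ptprf fell, with 189, 118 and 30.4 in lhx1-AS/AcRA caps and 2599.5, 1905 and 1832 in AcRA caps (-4.57 ± 0.37, SE, limma adjusted p = 7.9e-06). A marker of the list, lamb1, was not analysed here.

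By the labels and by the paper, the caps were harvested before the stage at which the paper places the first pronephric transcripts of atp1b1. Whether the signals of the tubule list came from tubule cells was not tested, and its member atp6v1b1 is also in the skin cell list above. Of 19 genes of the differentiated tubule 6 were lower and 1 was higher, with a median of 0.59. With the dimmest 40% of probe sets left out, 10 of these genes remained, with 5 lower, 2 higher and a median of -0.77. Besides atp6v1b1 the lower ones included the transporter genes slc22a4, slc22a5 and slc3a2, which carry organic cations, carnitine and amino acids. They also included the sodium pump subunit atp1b2, whose call was lost without the replicate block (limma adjusted p = 0.13). Slc22a4 had 243, 177 and 48.9 in lhx1-AS/AcRA caps and 2157, 1474 and 1117 in AcRA caps (-3.57 ± 0.34, SE, limma adjusted p = 2.3e-05). Slc22a5 and slc3a2 had -2.41 and -3.06 (limma adjusted p = 9.5e-05 and 0.0006). The higher gene was atp1b1, a sodium pump subunit of the kidney, with 0.64 ± 0.20 (SE, limma adjusted p = 0.037), a call kept only without AcRA array I, with an adjusted p of up to 0.15.

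Of 12 axial mesoderm and notochord genes 2 were higher and 1 was lower, with a median of 0.32, and of 5 cement and hatching gland genes 0 were higher and 2 lower. Among 25 genes of the neural plate border and neural crest 4 were higher and 2 lower. Maternal, germ plasm and vegetal RNAs had 8 higher and 5 lower of 35, or 3 and 3 without the replicate block, and early zygotic genes 9 higher and 4 lower of 30. These lists share members with others described here.

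In neural plate genes, 8 of 28 were higher and 5 lower, with a median of 0.52, and without the replicate block 5 and 5. Among early neural factors zic2, a zinc finger gene, was higher, with 4479.9, 3431 and 2614 in lhx1-AS/AcRA caps and 598, 531 and 249 in AcRA caps (3.0 ± 0.42, SE, limma adjusted p = 0.00036). Pou5f3.2, a pluripotency-type POU factor, had 2.06 ± 0.41 and the replication and neural factor geminin, gmnn, had 1.11 ± 0.21 (SE, limma adjusted p = 0.0038 and 0.0024). Gmnn was not called without the replicate block (limma adjusted p = 0.24). Some genes of neuronal cells were lower. The neural adhesion genes cdh2 and ncam1 had -3.81 ± 0.69 and -3.14 ± 0.55 (SE, limma adjusted p = 0.0019 and 0.0016), and the synaptic vesicle gene syt1 had 25.7, 35.7 and 5.26 in lhx1-AS/AcRA caps and 672, 189 and 307 in AcRA caps (-4.33 ± 0.51, SE, limma adjusted p = 0.00011). Sox2, the neural HMG box gene, had -0.64 ± 0.36 (SE, limma adjusted p = 0.25).

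Of 42 extracellular matrix and adhesion genes 2 were higher and 8 lower, with a median of -0.08 that turned to 0.16 with the arrays scaled to 1 median. The matrix protein gene sparc had 309.6, 495 and 151 in lhx1-AS/AcRA caps and 4209, 4398 and 4939 in AcRA caps (-3.98 ± 0.52, SE, limma adjusted p = 0.00021). Fibronectin, fn1, averaged 9644 ± 1639 in lhx1-AS/AcRA caps and 9475 ± 2558 in AcRA caps (SD, n = 3 each), a difference of 0.05 ± 0.21 (SE, limma adjusted p = 0.91). Mmp3, a matrix metalloproteinase gene outside the list, had 3.19, 55.8 and 112 in lhx1-AS/AcRA caps and 3614, 3063 and 4343 in AcRA caps (-7.07 ± 0.70, SE, limma adjusted p = 3.1e-05).

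Wnt, FGF and Notch genes had few calls beyond those named. Of 50 Wnt genes 4 were higher and 5 lower with a median of 0.02, and the receptor gene fzd10 fell, with 138, 563 and 168 in lhx1-AS/AcRA caps and 1341, 2107 and 2047 in AcRA caps (-2.93 ± 0.39, SE, limma adjusted p = 0.00023). Of 24 FGF genes 3 were higher and 1 was lower. The receptor genes fgfr2 and fgfr1 moved in opposite directions, at 1.73 ± 0.23 and -1.16 ± 0.23 (SE, limma adjusted p = 0.00021 and 0.0034). In the Notch list, 2 of 16 were higher and 1 was lower. The bHLH repressor gene hes4 had 1.4 ± 0.26 and the protease gene adam10, which cuts Notch, -1.90 ± 0.31 (SE, limma adjusted p = 0.0022 and 0.001).

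Genes of the S phase were among the higher ones. Of 46 cell cycle genes 12 were higher and 2 lower, with a median of 0.42, and 6 to 12 were higher when 1 of the 6 arrays was left out. Scaling the arrays to 1 median gave 21, and the fit without the replicate block 6. Pcna, the replication clamp, had 5034, 5416 and 8012 in lhx1-AS/AcRA caps and 1949.5, 1904 and 2398 in AcRA caps (1.54 ± 0.29, SE, limma adjusted p = 0.0023), and the helicase gene mcm2 had 0.82 ± 0.18 (SE, limma adjusted p = 0.0068). The licensing genes cdt1 and mcm4 had 0.94 ± 0.20 and 0.94 ± 0.20 (SE, limma adjusted p = 0.0049 and 0.0049), calls lost without the replicate block (limma adjusted p = 0.064 and 0.061). Mcm6, another helicase gene, ran lower at -1.32 (limma adjusted p = 0.022), a call lost without lhx1-AS/AcRA array I, AcRA array I or AcRA array III, with an adjusted p of up to 0.13. Of 37 ribosome, translation and housekeeping genes 2 were higher and 1 was lower, with 5 and 2 with 64 added and 11 higher with the arrays scaled to 1 median. The elongation factor gene eef1a1 had 0.18 ± 0.13 (SE, limma adjusted p = 0.4). Of 29 stress and cell death genes 2 were higher and 3 lower, with 8 higher once the arrays were scaled to 1 median, and the higher ones were the sestrins sesn1 and sesn2, p53 targets, at 2.49 ± 0.33 and 1.98 ± 0.26 (SE, limma adjusted p = 0.00023 and 0.00021).

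Other genes were also far apart between the groups. Arr3, an arrestin of cone photoreceptors, had 265, 70.4 and 1499 in lhx1-AS/AcRA caps and 1.27, 10.3 and 2.42 in AcRA caps (6.58 ± 1.07, SE, limma adjusted p = 0.001). Dmrta2, a DM domain factor of the forebrain, had 169.8, 649.9 and 648 against 11.2, 51.0 and 6.31 in AcRA caps (4.76 ± 0.59, SE, limma adjusted p = 0.00014). Anxa9, an annexin, had 1.03, 1.35 and 21.7 in lhx1-AS/AcRA caps and 387, 199.9 and 387 in AcRA caps (-6.64 ± 0.66, SE, limma adjusted p = 3.1e-05). The fucosyltransferase gene fut6 had 20.7, 59.6 and 8.58 against 1485, 815 and 1086 in AcRA caps (-5.64 ± 0.49, SE, limma adjusted p = 1.4e-05). The groups did not overlap for any of these genes. The splicing regulator gene esrp1, an epithelial factor, fell by 2.32 on the log2 scale with 521, 833 and 437 in lhx1-AS/AcRA caps and 3256, 3439 and 2118 in AcRA caps (limma adjusted p = 6e-06).

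The oligonucleotide was also compared in caps without activin and retinoic acid, as lhx1-AS against C. The arrays of this comparison entered the one above only through the estimate of the spread. In lhx1-AS against C 17.8% of probe sets were called, and 525 of the 1082 higher and 959 of the 1851 lower probe sets were called the same way. Both comparisons used the same estimate of the spread of each probe set, so the shared calls are not independent. The effect in induced caps minus that in uninduced caps was tested as an interaction in the same model, which called 1.54% of all probe sets. It called 69 of the higher and 121 of the lower probe sets, and 58 and 98 of these without the lhx1-AS array that stood apart.

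Genes whose effect differed with induction included organizer, anterior and skin genes. Gsc averaged 16.6 in lhx1-AS caps and 9.05 in C caps, a difference of 1.05 ± 1.09, and the interaction was 6.84 ± 1.55 (SE, limma adjusted p = 0.047). Its call was lost without the lhx1-AS array of experiment I (limma adjusted p = 0.089). Fzd8 averaged 2155 in lhx1-AS caps and 1529 in C caps (0.46 ± 0.33), with an interaction of 5.83 ± 0.46 (SE, limma adjusted p = 7.1e-05). Itln1 averaged 5871 in lhx1-AS caps and 13512 in C caps (-1.18 ± 0.39), with an interaction of -4.49 ± 0.55 (SE, limma adjusted p = 0.0019). In the epidermis list 12 of the 42 genes had a called interaction.

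Other genes differed in the same direction with and without induction. These were chosen after their values were seen, for their size in both, so no test of the difference between the 2 effects is given for them. Of the 276 probe sets called lower by more than 3 on the log2 scale, 50 were also called lower by more than 3 between lhx1-AS and C caps. Of the 101 called higher by more than 3, 10 were also called higher by more than 3 there. The same shares over all probe sets are not given here, so these counts stand as a description only. Vwa8, a mitochondrial protein gene, had 21.5, 20.8 and 3.52 in lhx1-AS/AcRA caps and 1122, 1269.8 and 1274 in AcRA caps. In uninduced caps it had 26.4, 3.51 and 2.87 with lhx1-AS and 1146, 1442 and 1199 without. Its differences were -6.71 ± 0.67 with induction and -7.61 ± 0.67 without (SE). Tjap1, a tight junction associated protein gene, differed by -5.53 and -5.74, exoc4, an exocyst subunit gene, by -5.29 and -5.56, and cdh2 by -3.81 and -5.07. The nodal coreceptor gene tdgf1.3 was higher in both, by 2.90 and 4.35. Fn1, also chosen after its values were seen, did not follow this pattern. It was not called in induced caps, as given above, and had 445 in lhx1-AS caps and 5488 in C caps on average.

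**Figure D4:**
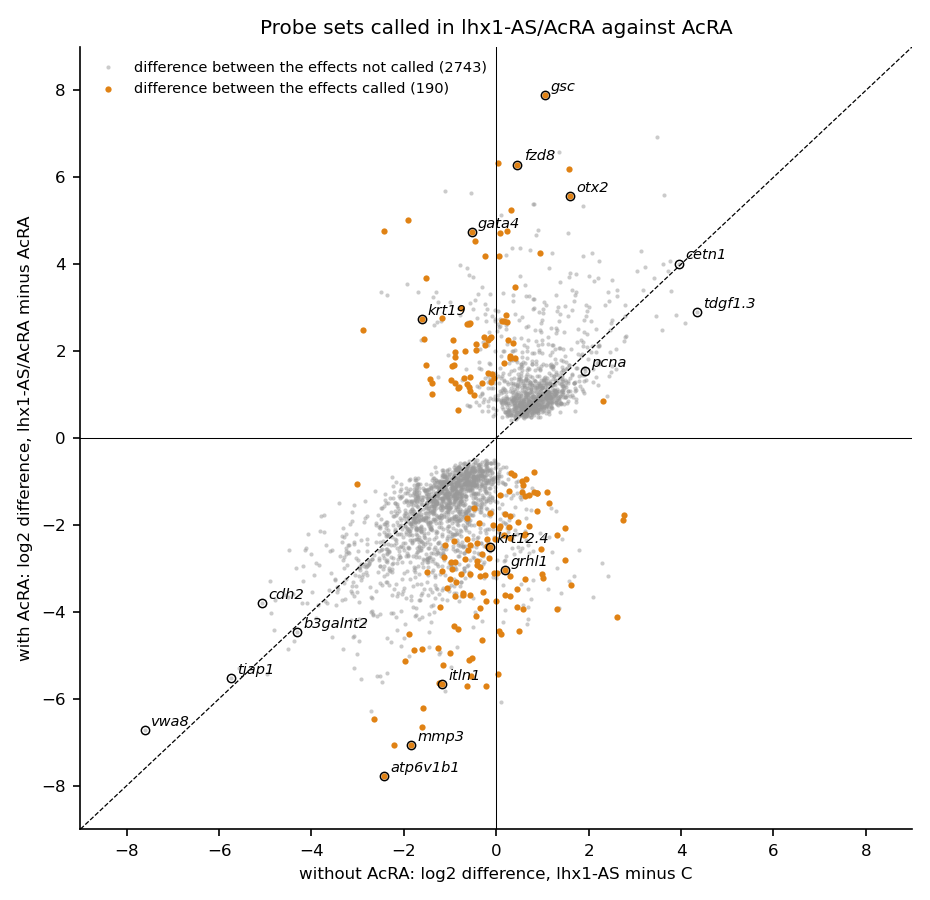
Log2 difference of lhx1-AS/AcRA minus AcRA (vertical axis) against lhx1-AS minus C (horizontal axis) for the 1082 higher and 1851 lower probe sets, with called interactions in colour and equal differences on the dashed line. Gsc and itln1 lie far from 0 on the vertical axis and near 0 on the horizontal one, and vwa8 and tjap1 lie near the line.

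Xenopus laevis carries paired copies of many genes. Of the 1017 genes with a probe set for each copy, 355 had 1 or more copies called. Both copies were called for 89 of them, and 89 of these ran the same way. The rest of the 355 had a call on 1 copy only. Probe sets of 1 gene did disagree for 6 genes, angel2, atg16l1, ntrk2, polr2i, selenot and vbp1, with 1 called higher and 1 lower. Of 188 called probe sets of genes followed by name, 107 were called the same way in all 6 omissions of 1 array. Besides the genes for which this is given above, the calls of atp1b1, cdx4, foxi1, hoxc6, krt70, mcm6, myod1, rara, rarg, rdh10, ski, sox17b.1, sox7, tp63 and vegt were lost without the replicate block, with a limma adjusted p from 0.052 for krt70 to 0.32 for mcm6. With the arrays scaled to 1 median those of hoxc6, rara and ski were lost (limma adjusted p = 0.067, 0.077 and 0.053).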

How the data were processed

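RNA of pooled animal caps was measured on 12 arrays, and groups and experiment numbers were taken from the labels. The authors deposited linear intensity values, GCOS signals scaled on each array to a common trimmed mean, without detection calls. No source used here gives the version of GCOS, and labels and paper differ in the RNA reagent they name. The array holds 15611 probe sets, of which 108 are controls and were not tested, and 596 signals under 1 (0.318%) were set to 1 before log2 was taken. The array annotation gave a single symbol to 9304 probe sets, more than 1 to 195 and no symbol to 6112. Of the symbols 2 were updated. Without the homeolog ending, 6505 gene names remained. The file held 0 columns of other samples.

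All 12 arrays were fitted with limma 3.58.1 in R 4.3.3, with 4 group means, the experiment as a block and a variance trend, with Benjamini-Hochberg adjustment over all tested probe sets. The 6 other arrays entered the estimate of the spread, the comparison of lhx1-AS with C and the interaction. As a check of the pairing, deviations from group means were correlated. The 18 pairs of arrays with the same number correlated at 0.152 to 0.269 and the 36 others at -0.190 to -0.0037, and the labels name the experiments, so the block was kept. A gene stood for its brightest probe set. Each array is 1 RNA of pooled caps. The p-values rest on the spread between arrays that remains once group and experiment are fitted, and not on the shifts between experiments. Precision is limited by having 3 arrays per group.

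The named genes were lhx1, genes the paper names, the 12 probe sets with the largest difference each way among those bright, called and changed 1 way in each experiment, up to 6 called members of each of 28 lists with members running against the list and the brightest not called, and the 5 brightest called probe sets each way. Genes given for large differences with and without induction, 3 further lists with nop58, rpn2, sec61a1 and stt3a, and cdh1, cdt1, cldn4, cyp26a1, cyp26c1, dsp, fn1, grhl3, hoxb4, jup, mcm2, mcm4, myf5, pkp3, sox2 and tp63 were chosen after their values were seen. Members and lists were chosen with earlier results of these data known. The model was tested on simulated data. Alternatives were no block, only the 6 arrays, 16 or 64 added, other scalings, a filter on dim probe sets, no variance trend, the methods' t-test, every probe set of a gene, and arrays or experiments left out. Leaving out the lhx1-AS array of experiment I, and all alternatives for the interaction, were chosen after seeing the data. No promoter search was run.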

Additional observations from a re-analysis of the deposited data

Results flagged for a closer look

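Among the genes named by the rule, 33 genes on 34 probe sets are given here. For these the difference between injected and uninjected caps was itself different with and without activin and retinoic acid, by limma's interaction at an adjusted p under 0.05. Values are log2 differences of the induced effect minus the uninduced effect. They were positive on 15 probe sets and negative on 19.

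Among organizer, anterior and endoderm genes the interaction was 6.84 for gsc, 6.94 for lefty, 5.83 for fzd8, 4.93 for admp, 3.98 for otx2, 4.54 for dmrta2, 5.27 for gata4, 4.43 for darmin and 1.70 for gata6. The 2 probe sets of cebpa had 7.19 and 4.63, and the neural factor zic2 had 3.76. The keratin krt19 had 4.35, with 1909.6 ± 1628 in lhx1-AS/AcRA caps and 261 ± 176 in AcRA caps, against 1619 ± 887 in lhx1-AS caps and 4583 ± 2025 in C caps (SD, n = 3 each), so its difference ran in opposite directions. Smaller positive values were 1.56 for fgfr2 and 1.47 for atp1b1.

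Among epidermis and mucociliary genes it was -3.22 for grhl1, -3.24 for dlx3, -3.11 for msx1, -2.38 for krt12.4, -2.40 for evpl, -4.49 for itln1, -4.40 for fut6, -5.35 for atp6v1b1 and -1.79 for the cement gland gene ag1. Other negative values were -5.09 for LOC100158288, -4.64 for LOC398451, -5.23 for mmp3, -5.04 for anxa9, -3.82 for cmahp, -4.54 for hoxc6, -3.42 for syt1, -2.86 for slc22a4, -1.69 for esrp1 and -1.58 for ski.

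Without the lhx1-AS array of experiment I, whose 3′ to 5′ ratios stood apart, 25 of the 34 were called. The calls of gsc, admp, darmin, gata6, atp6v1b1, mmp3, evpl, syt1 and ski were lost, with limma adjusted p-values of 0.089, 0.059, 0.067, 0.057, 0.11, 0.052, 0.094, 0.082 and 0.063.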

How the results depend on the processing

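With the experiment as a block, limma called 1082 probe sets higher and 1851 lower, 71 of 620 list genes higher and 87 lower, and 239 interactions. Without the block the counts were 419 and 1076, with 44 list genes higher and 68 interactions. With only the 6 arrays, 107 list genes were higher with the block, and without it 428 probe sets were higher, 983 lower and 56 list genes lower. With the arrays scaled to 1 median, 2093 probe sets and 127 list genes were higher and 40.4% of the called probe sets were lower. With no variance trend 667 probe sets were higher and 11 interactions were called. With 64 or 16 added, 431 and 397 interactions were called. The methods' t-test was run as a Welch test on linear signals, a form the paper does not name. At an unadjusted p under 0.05 it gave 99 higher by 4-fold or more and 944 lower by 2-fold or more. The paper's methods give these cutoffs, which are unlike for higher and lower, so the 99 and 944 cannot be set against each other. At an unadjusted p under 0.05 alone the test gave 836 higher and 1283 lower, and after Benjamini-Hochberg 0 and 0. Scaling to 1 median moved the median difference of all probe sets to 0.26, and the cause of the other shifts was not tested. The other counts stayed within 1.5 times. The 188 named called probe sets were chosen as called, and nearly all called probe sets ran 1 way in each experiment. Most of these settings could therefore hardly reverse them. None of the 188 changed sign under any of these settings that tested it. Medians of lists did. The tubule median was -0.77 with the dimmest 40% of probe sets left out, against 0.59. With the arrays scaled to 1 median the medians of the BMP, extracellular matrix, retinoic acid and cement gland lists were 0.08, 0.16, 0.19 and 0.12, against -0.16, -0.08, -0.05 and -0.12. The cement gland median was 0.04 after quantile normalization.

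Leaving out arrays or experiments gave 381 to 1338 higher and 1024 to 2076 lower probe sets, 60.8 to 72.9% lower, 41 to 88 list genes higher and 52 to 98 lower, and 39 to 312 interactions. Without lhx1-AS/AcRA array I, II or III the counts were 567 and 1376, 882 and 1688, and 553 and 1321 higher and lower. Without AcRA array I, II or III they were 622 and 1237, 812 and 1412, and 590.0 and 1293. The fewest probe sets and list genes came without experiment III, and the fewest interactions without experiment I. Of 188 named called probe sets, 123 were also called without the block and 183 with 64 added. With only the 6 arrays and the block 174 were called, with no variance trend 119, after quantile normalization 171 and with the arrays scaled to 1 median 166. Calls were also gained. Of the 47 named probe sets not called, 11 were called with only the 6 arrays and the block and 8 with 64 added.

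Dim signals limit the precision, and sizes against signals near the floor of 1 depend on it. With 64 added gsc differed by 5.56 and vwa8 by -4.03.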

Other observations

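A further 3 lists were chosen after values were seen and stand as counts only. Of 45 genes of the endoplasmic reticulum and early secretory route, which glycosylate, fold and ship secreted proteins, 19 were lower and 0 higher in lhx1-AS/AcRA caps than in AcRA caps, where 12.2% of the genes in no list were lower. Their median was -0.52, against 0.03 over all genes, and 19 and 0 were also counted with 64 added. Many of these calls were fragile. Copb2, rpn2, sec63, stt3a and tram1 kept their call in all 6 omissions of 1 array, and the other lower genes did not. Dnajb11 and sec23b kept theirs in 0 of the 6. Without the replicate block tram1 was not called either (limma adjusted p = 0.068). Stt3a, the catalytic subunit of the enzyme that attaches sugar chains to new proteins, had 1254, 491 and 658 in lhx1-AS/AcRA caps and 5467, 2866 and 4453 in AcRA caps (-2.48 ± 0.18, SE, limma adjusted p = 3.9e-06). The groups did not overlap. Its partner subunit rpn2 had -1.07 ± 0.20, the chaperone gene hspa5 -1.52 ± 0.38 and the translocon gene sec61a1 -0.60 ± 0.19 (SE, limma adjusted p = 0.0026, 0.015 and 0.04). The call of hspa5 was lost without lhx1-AS/AcRA array I or AcRA array I, and that of sec61a1 without lhx1-AS/AcRA array I or III or AcRA array I or III, with adjusted p-values of up to 0.093 and 0.22. Sec61a1 was also not called without the replicate block or with the arrays scaled to 1 median (limma adjusted p = 0.13 and 0.18). Between lhx1-AS and C caps 6 of the 45 were lower and 0 higher, where 17.8% of all probe sets were called, higher and lower together. The share for each direction is not given here.

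Of 22 cell junction genes 11 were lower and 0 higher, with a median of -0.52, and several of them are also in the epidermis list. Between lhx1-AS and C caps 7 were lower and 2 higher, where 17.8% of all probe sets were called, higher and lower together.

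Of 36 genes of ribosome assembly in the nucleolus 9 were higher and 2 lower, with a median of 0.25. Of the genes in no list 7.80% were higher. Between lhx1-AS and C caps 13 of the 36 were higher and 2 lower, where 17.8% of all probe sets were called, higher and lower together. Most of the higher calls in lhx1-AS/AcRA caps were fragile. Fbl, mphosph10, nop10, nop16, tsr1 and wdr43 kept theirs in 1 to 3 of the 6 omissions of 1 array. Without the replicate block ddx21, fbl, mphosph10, nop16, tsr1 and wdr43 were not called (limma adjusted p = 0.057 to 0.50). The lower gene pes1 kept its call in all 6 omissions and without the block. The snoRNP core gene nop56 had 16510.0, 16183 and 22452 in lhx1-AS/AcRA caps and 9832, 14248 and 14216 in AcRA caps (0.53 ± 0.17, SE, limma adjusted p = 0.045), and its partner nop58 had 0.73 ± 0.16 (SE, limma adjusted p = 0.0071), with groups that overlapped. The call of nop56 was lost without lhx1-AS/AcRA array I or III or AcRA array I or III, with an adjusted p of up to 0.24, and neither gene was called without the replicate block (limma adjusted p = 0.10 and 0.23). The median of a list near 0 moves with the scaling of the arrays, which shifted all probe sets to 0.26 when each was set to 1 median.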
